A study of Homo sapiens with 6 samples.

Results

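The genes described here encode the digestive enzymes of the lysosome, their activator proteins and resident proteins of the lysosomal membrane. They were chosen by name, as 43 gene symbols sought in the deposited count table of 17534 genes, and all 43 were found. In classes they are 13 proteases, 15 glycosidases and sulfatases, 7 lipid hydrolases, activators and carriers, and 8 membrane proteins. RNA sequencing of the cell line NCI-H1703, given in the labels as a lung squamous cell carcinoma line, compared 3 libraries labelled Sh-PPM1G with 3 control libraries labelled Sh-NC. Sh-PPM1G cells carry a short hairpin RNA (shRNA) against PPM1G, a phosphatase of the PP2C family, while the study's design text describes the controls as wild-type cells. All libraries come from 1 cell line, and neither the hairpin's sequence, nor the number of hairpins, the clonality of the cells or the time after transduction is given in the sources used here. Whether the replicates were separate cultures is not stated, and p-values reflect the spread of these libraries alone, which may be technical.

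Lysosomes are acidic organelles in which proteins, glycans, nucleic acids and lipids delivered by endocytosis and autophagy are broken down. Most of the soluble enzymes are tagged with mannose 6-phosphate in the Golgi and carried to lysosomes by mannose 6-phosphate receptors, while heavily glycosylated membrane proteins line the inner face of the organelle. Many of these genes are known targets of the transcription factors TFEB and TFE3, which bind a palindromic promoter element called CLEAR, an extended form of the E-box. In tumour cells lysosomes supply amino acids and lipids, and some cathepsins are also secreted.

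Library totals ranged from 31337553 to 35838246 counts, and any pair of replicates differed beyond sampling noise (chi-square of 2.69 to 6.44 per degree of freedom). PPM1G itself, examined first as a check of the labels, was at 333, 308 and 324 CPM (counts scaled to a common library size) in control libraries 1 to 3 and at 182, 194 and 188 CPM in PPM1G shRNA libraries 1 to 3, or 58.5% of the control level. Macrophage markers were looked at because CD68 and several cathepsins are abundant in macrophages. Their summed level over 12 genes was 10.1 to 12.5 CPM in control and 13.2 to 15.2 CPM in PPM1G shRNA libraries. Of these 12 genes 4 passed the expression filter. The leukocyte gene PTPRC averaged 0.0971 CPM in controls and TYROBP 0.00967 CPM. CD163 rose (log2 fold change 2.09 ± 0.14 SE, from 2.25 to 9.60 CPM), as did ITGAM (3.77 ± 0.75), which averaged 0.444 CPM in shRNA libraries, while FCER1G (−1.16 ± 0.14, from 7.74 to 3.45 CPM) and CSF1R (−1.04 ± 0.40, from 0.621 to 0.302 CPM) fell. Of 7 squamous markers measured, 2 passed the filter, SOX2 at 22.7 CPM and TP63 at 1.54 CPM in controls, and SOX2 (−1.09 ± 0.08) and TP63 (−0.89 ± 0.29) fell. Of 6 adenocarcinoma and alveolar markers, 3 passed: NKX2-1 at 114 CPM in controls, MUC1 at 11.5 CPM and NAPSA at 2.16 CPM. MUC1 rose (0.64 ± 0.08), as did NAPSA, a protease gene described with the other hydrolases, and NKX2-1 was not called (0.09 ± 0.04). Of 8 fibroblast markers measured, 4 passed the filter. COL1A1 (1.15 ± 0.03) and PDGFRB (1.26 ± 0.13) rose, COL1A2 (−0.69 ± 0.14) fell and THY1 was not called (160.5 against 155.7 CPM). The summed level of the 8 genes was 315 to 337 CPM in control and 509.9 to 518.5 CPM in shRNA libraries, a difference carried by COL1A1 (154 to 344 CPM). In bulk libraries fewer cells of a type and less RNA per cell cannot be told apart.

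To find how lysosomal genes differed between the groups, they were read from one fit over all genes. All 43 members passed the expression filter. Of these, 21 rose, 18 fell and 4 did not pass the test (edgeR's quasi-likelihood test, Benjamini-Hochberg adjusted p under 0.05). The groups differed over most of the transcriptome: 82.9% of the 13060 genes tested were called, 41.5% as risen and 41.3% as fallen. Among the members 48.8% rose and 41.9% fell, shares near this background. The median log2 fold change was 0.07 over the members and 0.01 over all genes tested. Changes of at least 2-fold were seen in 7 members that rose and 6 that fell, 30.2% of the members, where the background was 24.2% (11.8% up and 12.4% down). The libraries of the groups did not overlap for 41 members, or 95.3%, beside 83.7% of all genes tested. The set was thus split rather than moved as a block, from SGSH (1.53 ± 0.03) and CTSF (1.52 ± 0.06) at the top to GLA (−1.73 ± 0.09) and GM2A (−1.94 ± 0.08) at the bottom.

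**Figure D1:**
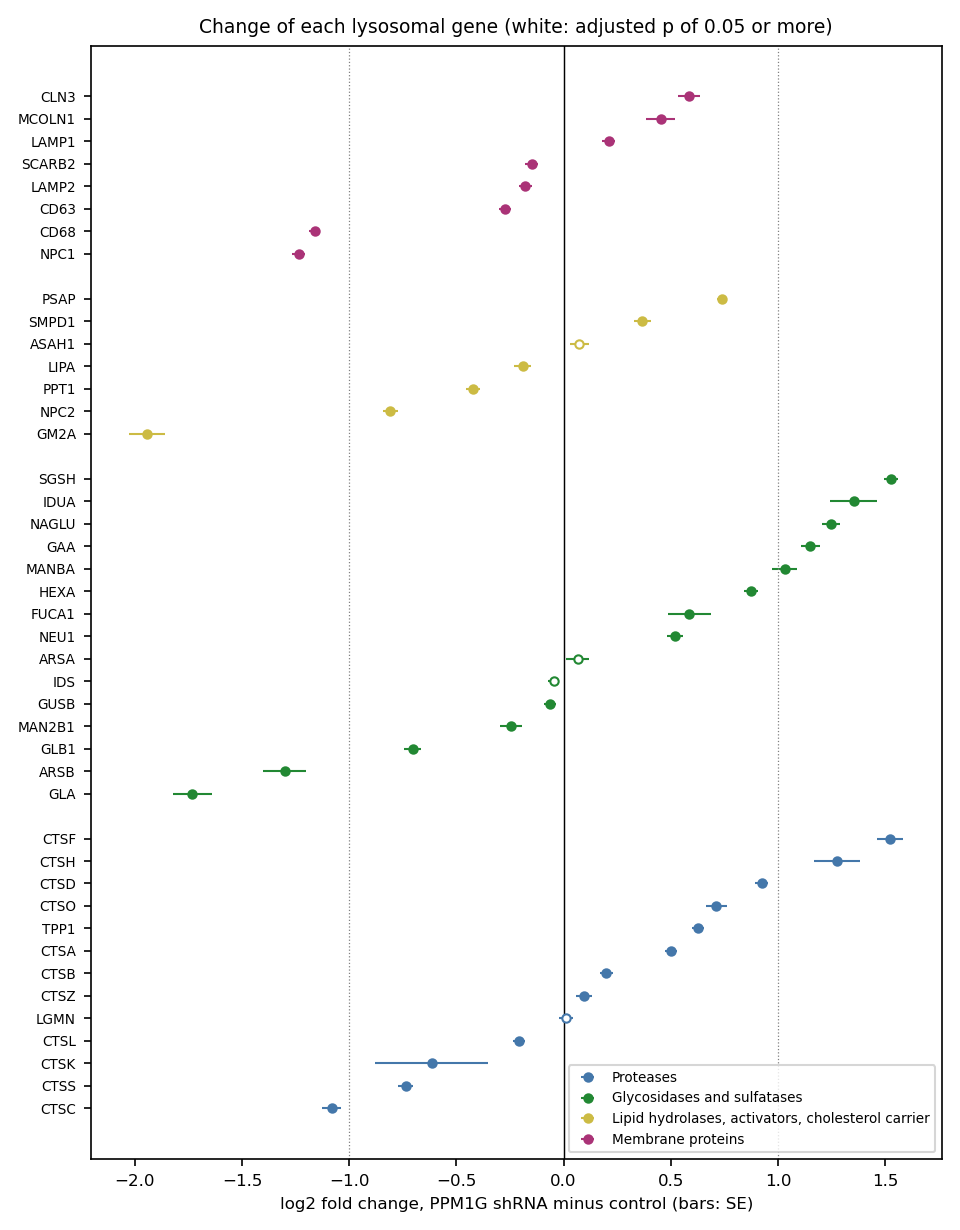
Log2 fold change (x axis, PPM1G shRNA minus control) of each of the 43 lysosomal genes, grouped by class, with bars for the SE and white points for genes that did not pass the test. Each class holds genes on either side of 0, and the dotted lines mark a 2-fold change.

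Promoter windows were searched for the CLEAR element, which is known from lysosomal genes. RefSeq promoter sequences (GRCh38.p14, from 250 bases before to 50 bases after 1 annotated start per gene) were matched for 30 of the 43 members. In 24 of them that start is the outer end of the gene in RefSeq, and in 6 it lies inside the gene, by 8 bases in CLN3, 1032 in CD63 and 20708 in SCARB2. Searched were the E-box CACGTG, its extended form TCACGTGA and the full CLEAR palindrome, which is the extended form with a G before and a C after it. Each longer motif contains the shorter, and all are palindromes, so that one search covers both strands. CACGTG was found in 9 of 30 member promoters (30.0%), where 7.43% of all 27305 promoters and 9.92% of the promoters of tested genes hold it. TCACGTGA was found in 5 members (16.7%, beside 1.92% for tested genes) and the full palindrome in 2 (6.67%, beside 0.753%). To show how the element varies, the stretches around the longest match of 6 members are given, with that match in capitals and up to 25 bases on either side, 5′ to 3′ on the strand of the gene. The first pair holds the full palindrome, the next pair the extended E-box and the last pair the E-box alone. Some promoters hold more than 1 match: CACGTG occurs 6 times in the window of LAMP1 and 2 times each in those of GAA, MCOLN1, CTSA, CTSF and CLN3, and a further copy is visible in lower case in the stretches of MCOLN1 and CTSA.
GAA: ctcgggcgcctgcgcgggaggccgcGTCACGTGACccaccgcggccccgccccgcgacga
MCOLN1: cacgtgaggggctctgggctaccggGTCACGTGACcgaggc
CTSA: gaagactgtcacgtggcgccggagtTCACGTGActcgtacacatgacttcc
LAMP1: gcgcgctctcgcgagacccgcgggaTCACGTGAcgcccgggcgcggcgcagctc
CTSD: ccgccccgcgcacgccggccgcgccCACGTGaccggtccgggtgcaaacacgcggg
CTSF: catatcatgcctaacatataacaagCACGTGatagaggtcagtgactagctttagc

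These stretches lie at chr17:80101478-80101537 (GAA, plus strand), chr19:7522583-7522623 (MCOLN1, plus), chr20:45891284-45891334 (CTSA, plus), chr13:113297185-113297238 (LAMP1, plus), chr11:1763944-1763999 (CTSD, minus) and chr11:66568699-66568754 (CTSF, minus). NEU1 and CD63 hold the E-box alone as well, that of CD63 inside the gene as RefSeq delimits it, and CLN3 holds an extended E-box across the start site used. Of the 9 members with CACGTG, 8 rose and 1, CD63, fell, with a median log2 fold change of 0.52. Among all 1067 tested genes with CACGTG, 45.6% rose and 39.9% fell, with a median of 0.06. Of the 21 members without it in this window, 6 rose, 14 fell and 1 was not called, with a median of −0.21. All 5 members with TCACGTGA rose, by 0.21 to 1.15, with a median of 0.50, and the 25 without it had 9 rises and 15 falls and a median of −0.19. Among all tested genes with TCACGTGA, 52.9% of 206 rose and 31.6% fell, with a median of 0.16. These are descriptions without a test. A match does not show binding, the absence of these letters in the window says nothing of the factor, and 13 members, SGSH, NAGLU and PSAP among them, had no sequence to search.

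**Figure D2:**
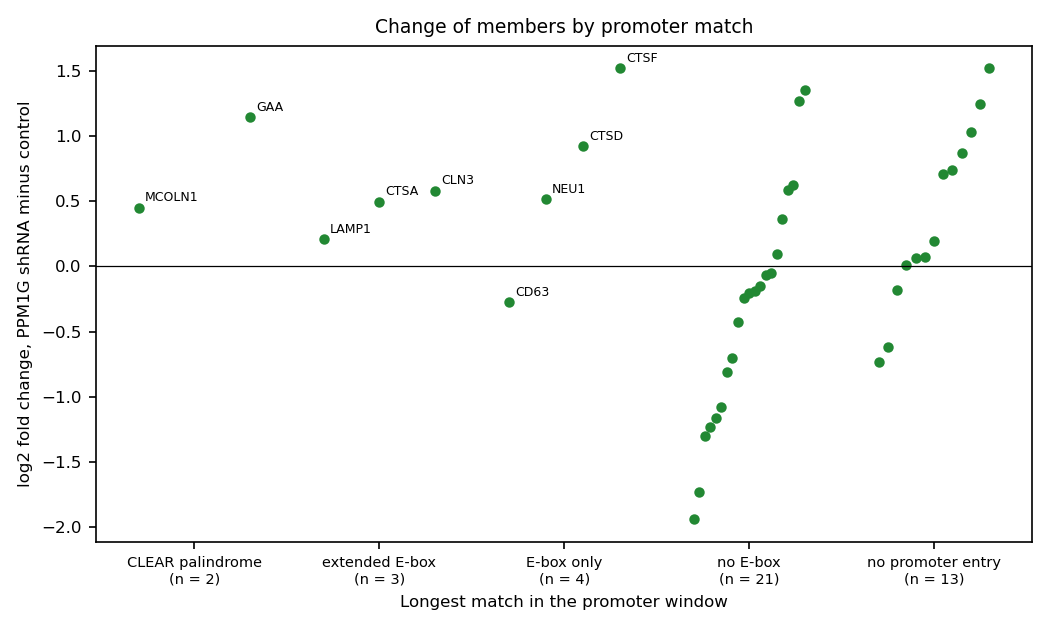
Log2 fold change of each member (y axis) by the longest promoter match found in its window (x axis); names are given for members with a match. CD63 is the named member below 0, and members without an E-box span −1.94 to 1.35.

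The proteases comprise papain-like cysteine cathepsins, the aspartic protease CTSD and several serine or asparaginyl proteases. Of 13, 8 rose (61.5%), 4 fell (30.8%) and 1 was not called, with a median log2 fold change of 0.20. Over all genes tested 41.5% rose and 41.3% fell. CTSF (Entrez 8722; chr11:66563464-66568606 on GRCh38), a cysteine cathepsin, was at 29.5, 28.6 and 35.8 CPM in control libraries 1 to 3 and at 92.9, 87.0 and 90.3 CPM in PPM1G shRNA libraries 1 to 3. The groups were far apart, and CTSF rose by 1.52 ± 0.06 (adjusted p = 1.3e-15). CTSH, which acts mainly as an aminopeptidase (Entrez 1512; chr15:78921058-78945046), was less abundant, at 7.03, 5.10 and 6.41 CPM against 13.6, 14.8 and 16.4 CPM. It rose by 1.28 ± 0.11 (adjusted p = 1.7e-12), with no overlap between the groups.

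CTSD, the main aspartic protease of lysosomes (Entrez 1509; chr11:1752755-1763927), stood at 490.3, 464 and 506 CPM in the controls. In the PPM1G shRNA libraries it reached 919.9, 935 and 914 CPM, a rise of 0.92 ± 0.03 (adjusted p = 6.7e-24) for the protease with the highest level per length over all 6 libraries. CTSO (0.71 ± 0.05), the tripeptidyl peptidase TPP1 (0.63 ± 0.03), the carboxypeptidase CTSA (0.50 ± 0.03), which also shields the glycosidases GLB1 and NEU1 from degradation, and CTSB (0.20 ± 0.03) rose as well. The carboxypeptidase CTSZ rose by 0.10 ± 0.04 (adjusted p = 0.015), a call lost without PPM1G shRNA replicate 3 (0.08, adjusted p = 0.076). Reads of CTSA may include those of PLTP, and those of CTSD the non-coding RNA PRADX, which overlap them in RefSeq. No strand setting is stated for the counts. In RefSeq 12 of the 43 members overlap a protein-coding gene, 19 overlap any gene and 7 have pseudogenes of their name. This limit therefore also holds for members where it is not repeated.

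Cysteine cathepsins were also found among the falls. CTSC, the dipeptidyl peptidase that activates granule serine proteases (Entrez 1075; chr11:88293592-88337736), was at 96.0, 100.3 and 106 CPM in controls and at 46.0, 48.3 and 48.2 CPM in PPM1G shRNA libraries. The shRNA level was 47.2% of control (−1.08 ± 0.04, adjusted p = 8.4e-21). CTSS, known for processing the invariant chain of MHC class II (Entrez 1520; chr1:150730188-150765778), fell from 176, 175 and 179.6 CPM to 107, 106 and 105 CPM (−0.74 ± 0.03, adjusted p = 1.3e-19). CTSK, the collagen-degrading cathepsin of osteoclasts (Entrez 1513; chr1:150796208-150808260), was barely expressed, at 1.55, 1.63 and 2.18 CPM against 1.11, 1.51 and 0.862 CPM.

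The CTSK libraries nearly touched, at 1.55 and 1.51 CPM. Its fall of 0.62 on the log2 scale (SE 0.26, adjusted p = 0.032) was not called without control replicate 3 (−0.45, adjusted p = 0.14), without PPM1G shRNA replicate 1 (−0.59, adjusted p = 0.071), without PPM1G shRNA replicate 3 (−0.43, adjusted p = 0.15), or with plain library totals (−0.52, adjusted p = 0.070). CTSL, an abundant endopeptidase with 6 pseudogenes of its name that may share reads, fell slightly (−0.21 ± 0.03). The asparaginyl endopeptidase LGMN was at 142, 147 and 144 CPM against 142, 146 and 148 CPM, with overlapping libraries (0.01 ± 0.03, adjusted p = 0.77). With plain library totals LGMN had a log2 fold change of 0.11 (adjusted p = 0.0035) and was called. That scaling moved the median of all genes from 0.01 to 0.12, so that LGMN stood near the shifted median.

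**Figure D3:**
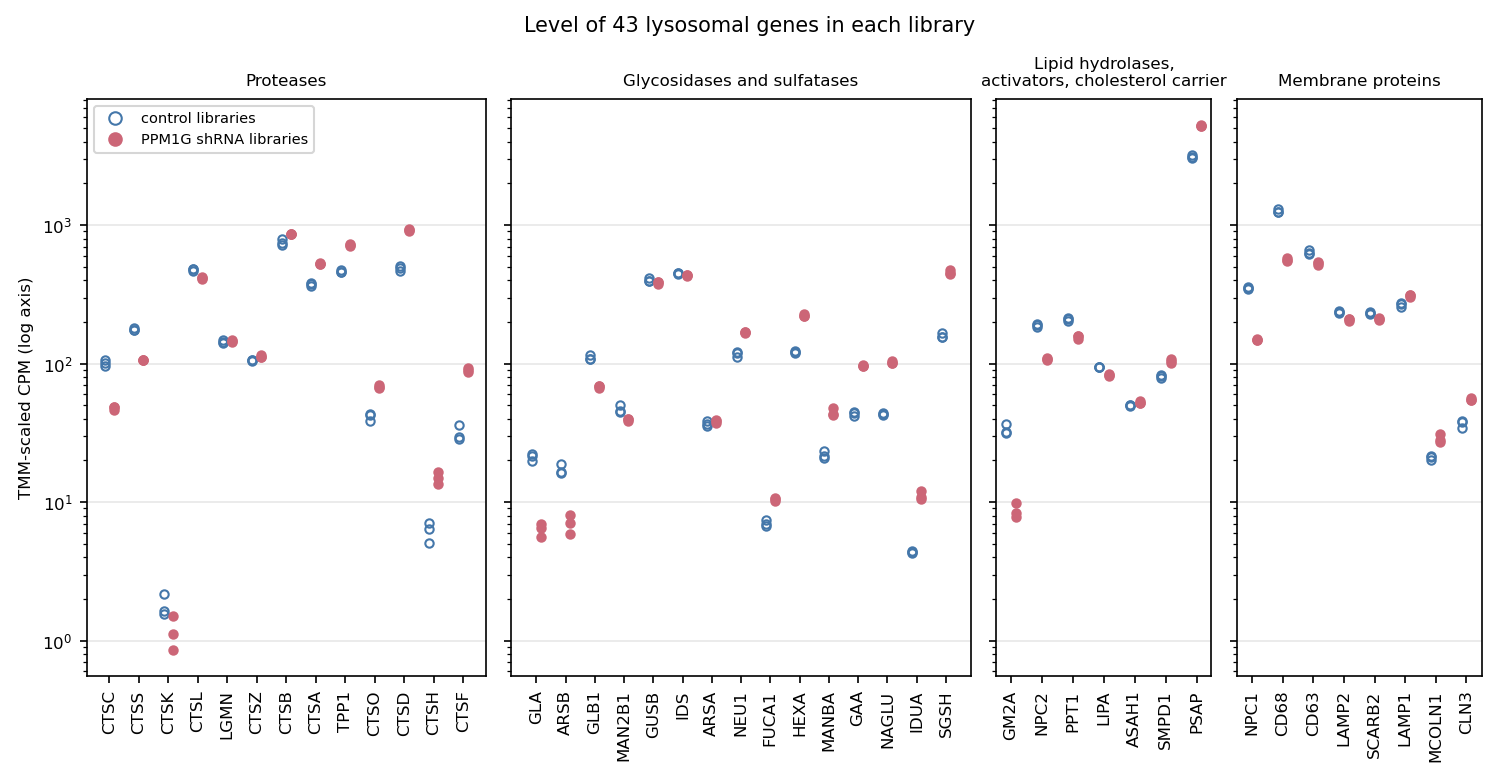
TMM-scaled CPM (y axis, log scale) of each member in each of the 3 control (open) and 3 PPM1G shRNA (filled) libraries, by class and ordered by change. Replicates lie close together, and the groups separate for 41 of 43 genes; CTSK is the lowest and PSAP the highest.

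Of the 15 glycosidases and sulfatases, 8 rose (53.3%), 5 fell (33.3%) and 2 were not called, with a median of 0.52. The background was 41.5% risen and 41.3% fallen. In this class 5 of the rises and 2 of the falls were at least 2-fold, or 46.7% beside 24.2% of all genes tested. Several enzymes of heparan sulfate breakdown had the largest rises. The sulfamidase SGSH (Entrez 6448; chr17:80200673-80220333) was at 156, 155 and 167 CPM in controls and at 474, 453 and 446 CPM in PPM1G shRNA libraries, 2.88 times higher (1.53 ± 0.03, adjusted p = 3.3e-28). Every shRNA library lay well above every control, although SGSH overlaps the protein-coding gene CARD14. The glucosaminidase NAGLU (Entrez 4669; chr17:42536241-42544449) was at 42.5, 43 and 43.8 CPM against 101, 104 and 102 CPM, a rise of 1.25 ± 0.04 (adjusted p = 4.2e-23).

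IDUA, the iduronidase of heparan and dermatan sulfate (Entrez 3425; chr4:986997-1004564), was a low-level gene at 4.41, 4.28 and 4.35 CPM in controls and 10.9, 12.0 and 10.5 CPM in shRNA libraries. It rose by 1.35 ± 0.11 (adjusted p = 5.8e-13), with the reservation that SLC26A1 overlaps it. The iduronate sulfatase IDS, which acts before IDUA on the same chains, was not called: its libraries were at 452, 449 and 447 CPM against 431, 435 and 439 CPM (−0.05 ± 0.03, adjusted p = 0.10). IDS was called as fallen only without control replicate 3 (−0.05, adjusted p = 0.044).

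GUSB, the glucuronidase often used as a reference gene (Entrez 2990; chr7:65960684-65982213), had the highest level per length of this class. Its values were 397, 395 and 414 CPM in controls and 389.9, 388 and 376 CPM in PPM1G shRNA libraries, which just failed to overlap. The call of GUSB as fallen (−0.06 ± 0.03, adjusted p = 0.040) rested on scaling and on single libraries. The value was 0.04 with plain library totals (adjusted p = 0.24) and 0.04 on the log2(FPKM + 1) scale (adjusted p = 0.24). Without control replicate 3 it was −0.04 (adjusted p = 0.093), and without PPM1G shRNA replicates 1, 2 and 3 it was −0.07, −0.07 and −0.05 (adjusted p = 0.061, 0.068 and 0.22). With 19 pseudogenes of its name in RefSeq, its reads are also uncertain.

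Enzymes of glycolipids were divided. The galactosidase GLA, which removes the terminal galactose of globotriaosylceramide (Entrez 2717; chrX:101397803-101407925), was at 22.4, 19.7 and 21.5 CPM in controls and 6.55, 5.62 and 7 CPM in PPM1G shRNA libraries. That is 30.1% of the control level, the steepest fall of the class (−1.73 ± 0.09, adjusted p = 9.2e-18), at a locus that a readthrough gene, RPL36A-HNRNPH2, overlaps. The ganglioside galactosidase GLB1 (Entrez 2720; chr3:32961108-33097146) fell from 109, 108 and 116 CPM to 68.8, 68.6 and 66.9 CPM (−0.70 ± 0.04, adjusted p = 6.4e-17).

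HEXA, the alpha subunit of hexosaminidase A, rose by 0.88 ± 0.03 and the sialidase NEU1 by 0.52 ± 0.04. NEU1 and GLB1, which are bound in a complex with CTSA, thus had opposite signs, CTSA moving up with NEU1. The sulfatide sulfatase ARSA was at 35.6, 36.4 and 38.3 CPM against 39.4, 38.7 and 37.3 CPM, with overlapping libraries (0.07 ± 0.05, adjusted p = 0.25), and was called as risen with plain library totals (0.17, adjusted p = 0.0046).

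ARSB, the sulfatase of dermatan and chondroitin sulfate (Entrez 411; chr5:78777209-78985958), was at 16.3, 18.9 and 16.5 CPM in controls and at 8.10, 7.08 and 5.87 CPM in shRNA libraries. ARSB fell by 1.30 on the log2 scale (SE 0.10, adjusted p = 3.2e-13), with the groups apart. Among enzymes of glycogen and glycoprotein glycans, the acid glucosidase GAA, whose promoter holds the full palindrome above, rose by 1.15 ± 0.04. The beta-mannosidase MANBA (1.03 ± 0.06) and the fucosidase FUCA1 (0.59 ± 0.10) rose too, whereas the alpha-mannosidase MAN2B1 fell (−0.24 ± 0.05).

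The class of lipid hydrolases, activators and carriers had 2 rises, 4 falls and 1 gene not called, with a median of −0.19. Rises and falls made up 28.6% and 57.1%, beside 41.5% and 41.3% of all genes tested. PSAP (Entrez 5660; chr10:71816298-71851251) encodes prosaposin, the precursor of the saposins that present sphingolipids to their hydrolases. It was the most abundant member, at 3089, 3041 and 3236 CPM in controls and 5194, 5274 and 5167 CPM in PPM1G shRNA libraries, 1.67 times higher (0.74 ± 0.03, adjusted p = 4.4e-23). SMPD1, the acid sphingomyelinase (Entrez 6609; chr11:6390474-6394996), rose from 82.2, 79.4 and 81.5 CPM to 108, 101 and 105 CPM (0.37 ± 0.04, adjusted p = 4.3e-10). The acid ceramidase ASAH1 was at 49.3, 50.5 and 50.3 CPM against 52.3, 53.4 and 52.2 CPM. Those ranges did not overlap, but ASAH1 missed the threshold (0.07 ± 0.04, adjusted p = 0.13), and it was called as risen with plain library totals (0.17, adjusted p = 0.00076).

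GM2A, the activator that lifts gangliosides out of the membrane for hexosaminidase A (Entrez 2760; chr5:151253185-151270440), had the deepest fall of all members. It was at 31.8, 31.7 and 36.4 CPM in controls and 7.76, 9.78 and 8.37 CPM in PPM1G shRNA libraries, 26.0% of the control level (−1.94 ± 0.08, adjusted p = 5.0e-20). GM2A has 2 pseudogenes of its name that may share reads. The transcripts of this activator and of the enzyme subunit it serves, HEXA, therefore moved in opposite directions, and PSAP, the other activator gene of the set, moved up. NPC2, the soluble carrier that hands cholesterol to NPC1 (Entrez 10577; chr14:74479935-74493512), fell from 191, 183 and 195 CPM to 107, 110.3 and 107 CPM (−0.81 ± 0.03, adjusted p = 2.2e-20). The palmitoyl-protein thioesterase PPT1 (Entrez 5538; chr1:40071461-40097252), which overlaps CAP1, fell from 204, 211 and 212 CPM to 151, 158 and 158 CPM (−0.42 ± 0.03, adjusted p = 1.2e-13). LIPA, the acid lipase that releases cholesterol from its esters, fell slightly (−0.19 ± 0.04), and the span of its locus in RefSeq includes IFIT genes.

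All 8 membrane proteins were called, 3 as risen and 5 as fallen, with a median of −0.16. Of all genes tested 82.9% were called, 41.5% as risen and 41.3% as fallen. NPC1, the membrane partner of NPC2 in cholesterol export (Entrez 4864; chr18:23506184-23586506), was at 344, 351 and 357 CPM in controls and 148, 150.1 and 149 CPM in PPM1G shRNA libraries. It fell to 42.5% of control (−1.24 ± 0.03, adjusted p = 5.0e-27), so that transcripts of either step of lysosomal cholesterol export, NPC2 and NPC1, were lower. NPC1 overlaps the protein-coding gene RMC1.

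CD68, a LAMP-family glycoprotein best known as a macrophage marker (Entrez 968; chr17:7579638-7582111), was the most abundant membrane gene. At 1301, 1252 and 1244 CPM in controls and 583, 563 and 551 CPM in PPM1G shRNA libraries it fell to 44.7% of control (−1.16 ± 0.03, adjusted p = 2.4e-27). Of the macrophage markers above, PTPRC and TYROBP were near 0, FCER1G and CSF1R fell and CD163 and ITGAM rose; their part in the change of CD68 was not tested. The tetraspanin CD63 (Entrez 967; chr12:55723535-55730041) fell from 630.0, 623 and 664 CPM to 514, 532 and 540.4 CPM (−0.27 ± 0.03, adjusted p = 2.9e-10).

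LAMP2 (−0.18 ± 0.03) and SCARB2 (−0.15 ± 0.03), the receptor that carries glucocerebrosidase to lysosomes, fell slightly, and SCARB2 was not called with plain library totals (−0.05, adjusted p = 0.14). CLN3, mutated in a juvenile form of neuronal ceroid lipofuscinosis (Entrez 1201; chr16:28466653-28492082), rose from 37.8, 34.2 and 38.6 CPM to 56.4, 54.5 and 54.9 CPM (0.58 ± 0.05, adjusted p = 2.7e-12). The calcium channel gene MCOLN1 (Entrez 57192; chr19:7522624-7534009) rose from 20, 21.2 and 21.6 CPM to 27.1, 30.8 and 28.1 CPM (0.45 ± 0.07, adjusted p = 3.3e-07). LAMP1 (Entrez 3916; chr13:113297239-113323672) went from 257, 269 and 275 CPM to 312, 311 and 304 CPM (0.21 ± 0.03, adjusted p = 1.5e-07). LAMP1 and LAMP2, the paired major glycoproteins of the lysosomal membrane, thus differed in sign, each by a small amount. The 3 risen genes are those of the class in which the extended E-box was found, LAMP2 having no sequence to search. This match within 1 class was not tested. Over all classes, 6 of the 21 members without CACGTG in the window also rose, 14 fell and 1 was not called.

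Levels were compared between genes per length, as FPKM (counts divided by gene length and by the plain library total). In control libraries PSAP was highest with 1094 ± 34.3 FPKM (SD, n = 3), followed by CD68 (717 ± 16.9), CD63 (336 ± 11.2), CTSL (286 ± 6.10) and CTSD (229 ± 9.50). In PPM1G shRNA libraries the order was PSAP (1957 ± 23.0), CTSD (465 ± 5.99), CD68 (343 ± 9.15), CD63 (298 ± 8.18) and CTSL (266 ± 4.09). CTSD thus passed CTSL, CD63 and CD68, and all neighbours in these orders were separated by more than their SDs. The members together took 1.10% to 1.14% of counts in control and 1.43% to 1.45% in PPM1G shRNA libraries.

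Summed over a class, proteases went from 1126 ± 26.1 to 1557 ± 6.19 FPKM, glycosidases and sulfatases from 427 ± 9.81 to 568 ± 4.07, lipid hydrolases, activators and carriers from 1382 ± 39.2 to 2183 ± 24.8, and membrane proteins from 1301 ± 10.9 to 899.8 ± 3.28 (SD, n = 3). In the same order, these sums were 1.38, 1.33, 1.58 and 0.691 times the control level. In TMM-scaled CPM the ratios were 1.28, 1.31, 1.51 and 0.674, and 1.20 for all members. No class overlapped between the groups, and in CPM neither did 83.7% of all genes tested. The sums of the last pair of classes rest largely on single genes. PSAP made up 79.1% of its class in controls and 89.6% in shRNA libraries, and without it that class went down, from 284.5 to 294 FPKM in control libraries to 224 to 228 in shRNA libraries. CD68 made up 55.1% of the membrane sum in controls, and without it the membrane sum was 574 to 602 FPKM against 547 to 562, 0.952 times the control level. This ratio holds for FPKM, which is scaled by the plain library total and in which long genes weigh less. In TMM-scaled CPM, NPC1 fell from 351 to 149 and CD63 from 639 to 529, while 3 of these 7 genes rose. The protease sum without CTSD was still 1.22 times higher, and the glycosidase and sulfatase sum without GUSB 1.55 times. For all members the FPKM ratio was 1.23, and 1.03 without PSAP.

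**Figure D4:**
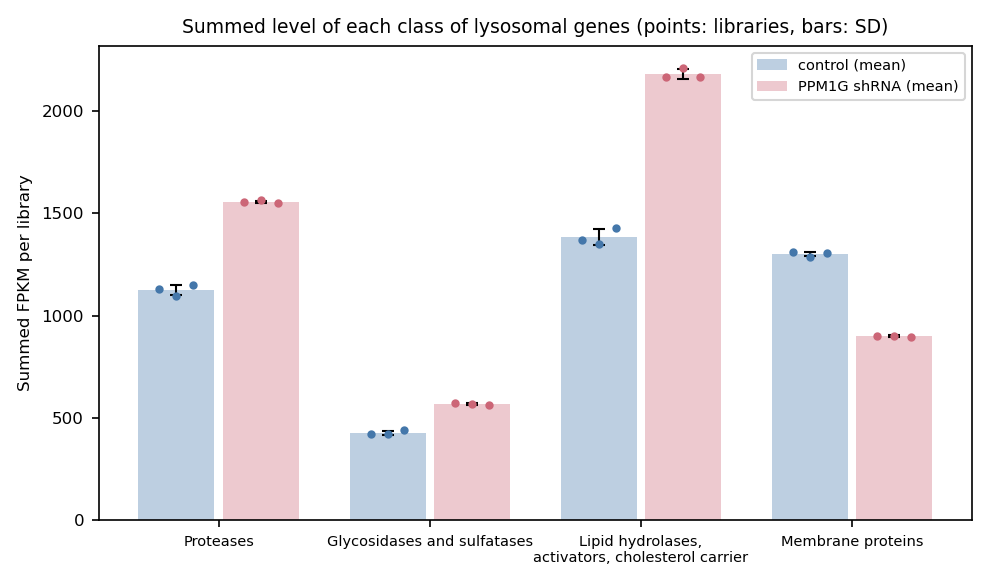
Summed FPKM of each class (y axis) in control and PPM1G shRNA libraries, with bars for the mean of 3 libraries, error bars for the SD and points for libraries. Proteases, glycosidases with sulfatases and the lipid class stand higher in the shRNA libraries and membrane proteins lower. On this FPKM scale PSAP and CD68 carry the sums of the last 2 classes.

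Other genes of the lysosomal system were read from the same fit. Their lists were chosen with earlier results of these data known, so their shares beside the background are descriptions only. Of 38 further tested hydrolases and cofactors, 18 rose, 11 fell and 9 were not called (median 0.08), shares of 47.4% and 28.9% beside 41.5% and 41.3% of all genes tested. The aspartic protease gene NAPSA, also a lung adenocarcinoma marker, rose from 2.16 ± 0.23 to 21.8 ± 0.40 CPM (3.33 ± 0.11), and the sulfatase gene ARSG, another enzyme of heparan sulfate breakdown, by 1.78 ± 0.10. The prenylcysteine oxidase gene PCYOX1 (−1.67 ± 0.04) and the glutamyl hydrolase gene GGH (−1.33 ± 0.04) fell. Of 31 further membrane proteins and transporters, 18 rose and 8 fell (median 0.33), or 58.1% and 25.8% beside the same background, with LAMP3 (2.66 ± 0.32, from 0.368 to 2.36 CPM), the nucleoside transporter gene SLC29A3 (1.57 ± 0.11), MFSD12 (1.41 ± 0.03) and the cystine exporter gene CTNS (1.23 ± 0.04) changing most.

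Subunits and accessory proteins of the V-ATPase, the proton pump that acidifies lysosomes, had 5 rises and 9 falls among 17 (median −0.13), or 29.4% and 52.9% where 41.5% and 41.3% of all genes tested rose and fell. ATP6V1G2 (1.67 ± 0.11) and ATP6V0B (0.68 ± 0.04) rose, while ATP6V0A2 (−0.61 ± 0.05) and ATP6V0A1 (−0.43 ± 0.04) fell. Of 22 genes of the mannose 6-phosphate pathway and of sorting to lysosomes, 5 rose and 14 fell (median −0.33), 63.6% where the background of falls was 41.3%. IGF2R, the large mannose 6-phosphate receptor, fell from 999 ± 25.7 to 389 ± 5.26 CPM (−1.36 ± 0.03, adjusted p = 2.7e-29). The sorting receptor gene SORL1 (−1.21 ± 0.09) and the adaptor subunit genes AP1M1 (−0.99 ± 0.04) and AP3M1 (−0.93 ± 0.04) fell with it. The gene of the small receptor, M6PR, fell less (−0.35 ± 0.03), whereas GNPTAB (0.35 ± 0.05) and GNPTG (0.70 ± 0.05), whose products add the tag, rose.

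Among 14 regulators of lysosomal genes, 12 rose and 1, PPP3CB (−0.69 ± 0.04), fell (median 0.41), 85.7% rising beside a background of 41.5%. This list too was chosen with earlier results of these data known. It holds repressors as well as TFEB and TFE3, so the rises do not all act in the same direction. The Rag GTPase gene RRAGC (1.38 ± 0.05), FNIP1 (1.15 ± 0.04) and FLCN (1.04 ± 0.03), whose products act on the Rag GTPases that hold TFEB and TFE3 at the lysosome, rose most, along with the repressor gene BHLHE40 (0.95 ± 0.03). TFE3 was at 178, 174 and 178 CPM in controls and 274, 263 and 266 CPM in PPM1G shRNA libraries (0.60 ± 0.03, adjusted p = 3.1e-18). MITF rose from 20.3, 22.5 and 20.1 CPM to 28.9, 29.3 and 25.3 CPM (0.41 ± 0.07). TFEB was the scarcest of the 3, at 3.53, 3.26 and 3.13 CPM against 4.98, 4.38 and 3.9 CPM (0.41 ± 0.16, adjusted p = 0.016). Transcript levels do not show the nuclear localisation by which these factors are mainly controlled, and their part in the members' changes was not tested.

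**Figure D5:**
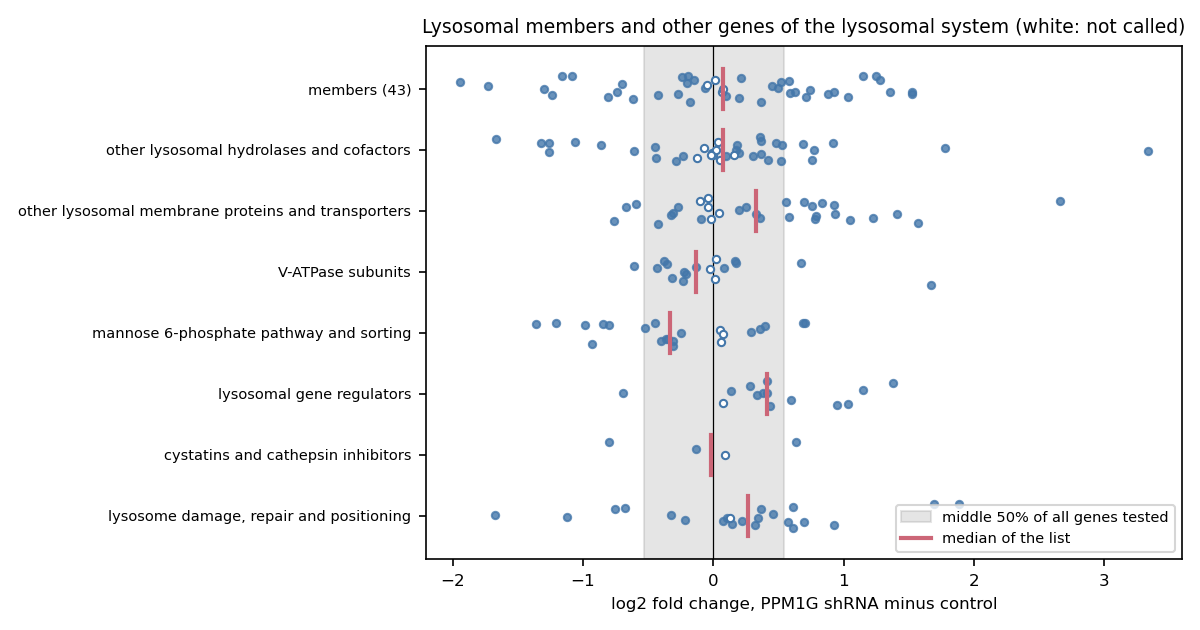
Log2 fold changes (x axis) of the members and of 7 lists of other lysosomal genes (y axis; points are genes, white points were not called, red bars are list medians). The band is the middle 50% of all genes tested. The regulators lie mostly above 0 and the mannose 6-phosphate and sorting genes mostly below, in lists chosen with earlier results of these data known.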

How the data were processed

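The authors deposited raw counts per gene and library, which are whole numbers whose totals differ between libraries. They also deposited FPKM values, which equal these counts over a fixed gene length and the library's total. The build was GRCh38, per the submitters' processing notes. Aligner, counting program, annotation and strand setting: not given in the sources used here.

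Counts were tested with edgeR 4.0.16 in R 4.3.3 (expression filter at a minimum count of 10, TMM factors, robust quasi-likelihood fit, group as the only term), with Benjamini-Hochberg adjustment over the 13060 genes tested and a threshold of 0.05. SEs were derived from the log2 fold change and its F statistic. CPM are TMM-scaled. The fit was tested on simulated data. Alternatives used DESeq2 1.42.0, limma 3.58.1 on log2(FPKM + 1), which understates changes of low genes, other scalings and filters, a replicate block and each library left out. Where values are described without a test, none was run.

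In each class, per-library values are given for up to 3 members with the largest rise and 3 with the largest fall among called genes without overlap, for the gene with the highest FPKM and for genes not called; in other lists, up to 4 called genes with the largest change are named, plus TFEB, TFE3 and MITF. CTSA, GAA, HEXA, NEU1, M6PR, GNPTAB and GNPTG were mentioned outside this rule for their roles, and PPP3CB as the only fall of its list. The members and lists were chosen with earlier results of these data known. Positions, overlaps and promoters come from RefSeq (GRCh38.p14), where all 43 members matched by Entrez ID.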

Additional observations from a re-analysis of the deposited data

How the results depend on the processing

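Counts of called members kept within 1.5 times of the reported value under every alternative run, in total and in each class. With 39 of 43 members called in the reported fit, no count could rise past that bound, so keeping within it says little. Of 43 members, 38 to 40 were called under the other tools, scalings and filters and 36 to 39 with 1 library left out, beside 39 reported. Of 572 alternative values for single genes (the members and PPM1G), 549 kept their side of the threshold. These also kept their direction wherever the gene was called, while changes of sign between uncalled values were not counted. The called gene GUSB changed sign, to 0.0362 with plain library totals and 0.0362 with limma on log2(FPKM + 1). These scalings are by the library total alone. IDS, not called (−0.05), averaged 55.9 FPKM in control and 58.0 FPKM in PPM1G shRNA libraries. With plain library totals 24 members rose and 15 fell, and with limma on log2(FPKM + 1) 24 and 16, beside 21 and 18 reported. The calls of CTSK, CTSZ, GUSB, IDS, LGMN, ARSA, ASAH1 and SCARB2 depended on the setting; the cause was not tested beyond scaling. Same-numbered libraries did not deviate together (correlations 0.0373, 0.0121 and 0.00789), and the labels do not pair them; a fit with a replicate block called 10805 genes beside 10821, and 38 members, losing GUSB (adjusted p = 0.054), which also missed the threshold with no filter (0.055) and with a CPM of at least 1 in 3 libraries (0.077). Counts limit CTSK, at 53 counts in control library 1.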

Other observations

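Genes of lysosome damage, repair and positioning showed 15 rises and 6 falls among 22 tested (median 0.27, where 41.5% of all genes tested rose and 41.3% fell). They form another list chosen with earlier results known. The galectin gene LGALS3, whose product marks ruptured lysosomes, was at 93.1, 88.4 and 88.0 CPM in control libraries and 287, 294 and 290 CPM in PPM1G shRNA libraries (1.69 ± 0.03). TRIM16, which encodes a partner of that galectin in the clearance of damaged lysosomes, rose from 26.2 ± 0.92 to 96.6 ± 1.92 CPM (1.88 ± 0.05). LGALS1 fell (−1.68 ± 0.08), as did KXD1, a subunit of the BORC complex that moves lysosomes outward (−1.12 ± 0.04). Subunit genes of the HOPS tethering complex rose by differing amounts, from VPS18 (0.14 ± 0.05) to VPS11 (0.93 ± 0.04); they were picked from this list after their values were seen.

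Of 13 genes of cathepsin inhibitors measured, 4 passed the expression filter. CSTB, the cytosolic inhibitor of cysteine cathepsins, fell from 141 ± 5.39 to 81.1 ± 2.50 CPM (−0.80 ± 0.04), and SERPINB6 fell slightly (−0.13 ± 0.04). SERPINB1 rose (0.64 ± 0.04), and the secreted inhibitor gene CST3 was not called (0.09 ± 0.06).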
